A study of Mus musculus with 3 samples.

Results

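The trophoblast lineage genes described here are 8 genes of the trophoblast, the outer lineage of the early mouse embryo that forms the fetal part of the placenta. They were taken by name from 24421 genes with deposited read counts: the transcription factor genes Cdx2, Elf5, Gata2, Gata3, Hand1 and Tfap2c and the keratin genes Krt8 and Krt18. All 8 were found, and 6 of them averaged 10 reads or more across the 3 libraries, the minimum used for counts of genes. Elf5 and Hand1 did not reach it, and Cdx2 reached it through the knockdown libraries, since it had 6 reads in control.

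RNA-Seq was performed on undifferentiated female EL 16.7 mouse embryonic stem (ES) cells of an F2 background, 129S1/CastEiJx 129S1, to determine how the loss of NUP153, a protein of the nuclear pore basket, alters transcription. The cells were transduced with lentivirus carrying a scramble shRNA (control, labelled wild type) or one of the NUP153 shRNAs (KD-1 and KD-2, labelled NUP153 knockdown), and selected with 2 μg/ml puromycin for 2 days. All 3 cultures grew with serum and LIF on γ-irradiated embryonic fibroblasts (MEFs) of Tg(DR4)1Jae/J mice, so that the RNA can hold feeder transcripts. Each condition has 1 library, which leaves no replicate check of any difference. Each interval given is a 95% interval that covers the counting of reads only, and each comparison is one between libraries and not between conditions.

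In the blastocyst, cells on the outside switch off Hippo signalling, and the coactivators YAP1 and WWTR1 then bind TEAD4 and turn on Cdx2. CDX2, GATA3, TFAP2C, EOMES and ELF5 act together to maintain trophoblast stem cells, GATA2 and HAND1 act in trophoblast giant cells, and keratins 8 and 18 pair into the first intermediate filaments of the outer epithelium. ES cells derive from the inner cells, in which OCT4 holds Cdx2 down, and forced expression of Cdx2 or Gata3 can turn ES cells towards trophoblast. TFAP2C also functions in naive pluripotent cells and in germ cells, and GATA2 in blood progenitors, so that these genes are not markers of trophoblast alone.

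Reads on genes numbered 69839336 to 85258834 per library. The targeted gene Nup153 had 27870 reads in the control library, with 16451 for KD-1 and 11126 for KD-2, which is 0.504 of the control level in KD-1 (interval 0.494 to 0.514) and 0.371 in KD-2 (interval 0.363 to 0.379) after scaling. Upper-quartile normalization was used for the scaling. A gene that averaged 10 reads or more is called past the fold where it was over 1.5-fold higher or lower. The 10 ES cell markers on the list used here were all detected, and Dppa5a, which had the highest mean over the libraries, had 54008 to 111186 reads. Their summed level was 4896 CPM (scaled read counts relative to the library size) in control, with 5387 for KD-1 and 3637 for KD-2. Single ES cell markers did not all follow this sum. Of the 10, 8 had a higher level than control for KD-1, against 4 for KD-2. The 20 fibroblast markers summed to 2347 CPM in control, with 1281 for KD-1 and 4061 for KD-2. Of the 19 fibroblast markers averaging 10 reads or more, 0 lay above control in KD-1, against 19 in KD-2. In these bulk samples, fewer cells of a type and less RNA per cell cannot be told apart.

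Cdx2 and Gata3, whose promoters are printed here because both genes were higher in both knockdown libraries, lie on chromosome 5 from 147300805 to 147307270 and on chromosome 2 from 9857078 to 9890034 (GRCm38). Krt8 and Krt18 lie next to each other on chromosome 15, from 101996698 to 102004482 on the minus strand and from 102028180 to 102032027 on the plus strand, with 23697 bases between them, and their promoters are shown because the ratio of their reads did not differ between libraries beyond counting error. The sequences are from RefSeq (GRCm38.p6) and run 5′ to 3′ along the gene from 250 bases before its RefSeq start, without bases that GENCODE M21 places in an exon of the gene. These starts lie inside the spans given above, at 147307249 for Cdx2, 9878600 for Gata3, 102004342 for Krt8 and 102028216 for Krt18. In this order, the printed parts end 22, 1, 141 and 37 bases before the RefSeq start. Capitals mark GCCNNNGGC, the motif of TFAP2 factors, and AGATAA, a motif of GATA factors.
Cdx2, chr5:147307271-147307499, minus strand: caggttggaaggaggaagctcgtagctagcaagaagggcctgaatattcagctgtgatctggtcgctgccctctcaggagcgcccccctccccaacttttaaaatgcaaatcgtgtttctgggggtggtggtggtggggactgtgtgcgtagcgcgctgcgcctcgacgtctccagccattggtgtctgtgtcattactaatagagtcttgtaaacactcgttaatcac
Gata3, chr2:9878601-9878850, minus strand: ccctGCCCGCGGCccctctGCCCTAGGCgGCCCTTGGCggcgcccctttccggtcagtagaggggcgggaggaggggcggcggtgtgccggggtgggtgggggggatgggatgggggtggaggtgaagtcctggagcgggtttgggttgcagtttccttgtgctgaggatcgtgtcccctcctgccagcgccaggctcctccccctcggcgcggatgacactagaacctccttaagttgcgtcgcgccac
Krt8, chr15:102004483-102004592, minus strand: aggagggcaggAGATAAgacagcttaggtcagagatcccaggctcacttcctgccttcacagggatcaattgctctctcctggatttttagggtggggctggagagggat
Krt18, chr15:102027966-102028179, plus strand: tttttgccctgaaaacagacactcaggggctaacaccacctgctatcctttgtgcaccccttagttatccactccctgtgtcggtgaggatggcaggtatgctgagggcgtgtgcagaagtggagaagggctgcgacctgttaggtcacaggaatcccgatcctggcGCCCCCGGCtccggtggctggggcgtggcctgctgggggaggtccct

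The RefSeq table used here matched 6 of the 8 genes, and Tfap2c and Hand1 were not matched. It gives 8 windows for the 6 genes, since Elf5 and Gata2 have a pair each. Both strands were searched over the 250 bases. GCCNNNGGC reads the same on both strands and was found in the windows of 4 genes, Cdx2, Gata2, Gata3 and Krt18, against 13.7% of 32851 RefSeq windows of the same length. Gata3 held 3 matches, and the match of Cdx2, GCCGCTGGC, begins 16 bases before the start and lies outside of the printed part. AGATAA was found in Krt8 and in 9.99% of all windows. GGAATG, the motif of TEAD factors, was found in 1 window each of Elf5 and Gata2 and in 12.6% of all windows, and TATAAA was found in 0 windows of these genes and in 12.4% of all windows. The motifs do not overlap each other in these windows.

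In control, per length of exons, Tfap2c was the highest of the 8 genes, at 10.4 RPKM, which is CPM divided by the length of the exons in kilobases. Krt8 followed at 3.49 RPKM and Krt18 at 3.42, and these neighbours in the order were not distinguished beyond counting error, with a Krt8 to Krt18 ratio per length of 1.02 (interval 0.888 to 1.18). Gata2 was at 0.212 RPKM, Gata3 at 0.0611 (interval 0.0356 to 0.0979) and Cdx2 at 0.0380 (interval 0.0139 to 0.0826), and the intervals of Gata3 and Cdx2 overlap. Hand1 and Elf5 had 1 and 2 reads in control, under the 3 reads taken as the floor of detection, which is 0.0429 CPM in that library. The keratins and Tfap2c thus contributed most of the reads on these genes, and Cdx2, with 6 reads in control, was close to the floor. In KD-1 the order was the same down to Gata2, with Cdx2 at 0.135 RPKM next to Gata3 at 0.126, and in KD-2 Cdx2 was at 0.141 and Gata3 at 0.110, again with overlapping intervals.

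**Figure D1:**
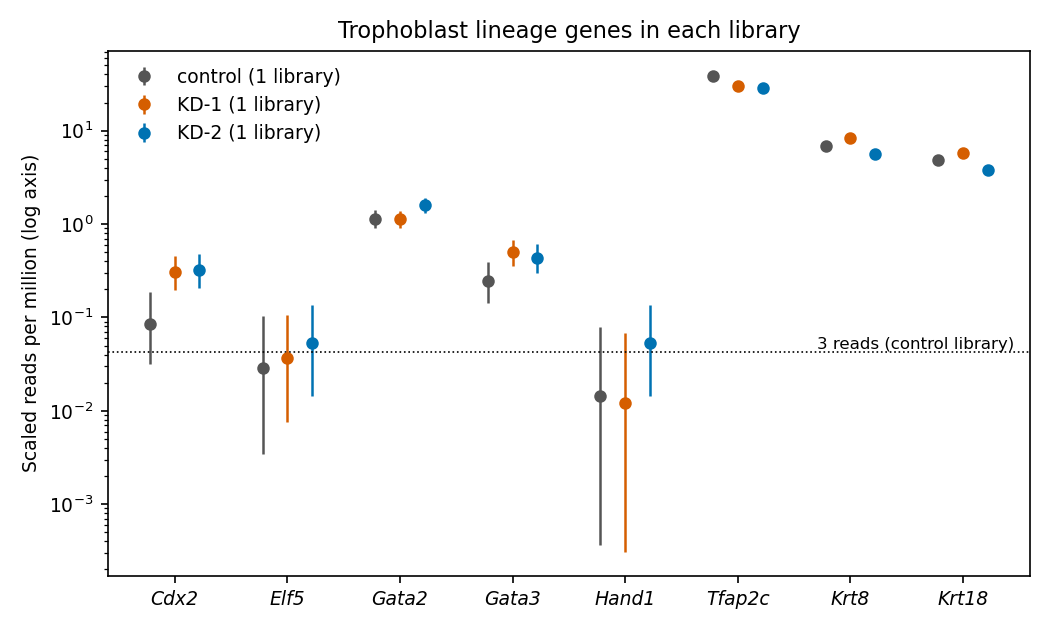
CPM (log axis) of the 8 genes in the control, KD-1 and KD-2 libraries; each point is 1 library, each bar its exact Poisson 95% interval for counting, and the dotted line 3 reads in the control library. Tfap2c, Krt8 and Krt18 sit above 3 CPM in all 3 libraries, and Elf5 and Hand1 lie around the line.

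To determine how the transcription factors of trophoblast stem cells differed in NUP153-deficient ES cells, each knockdown library was compared to control. Cdx2, the homeobox factor required for the outer lineage, had 6 reads in the control library, with 25 for KD-1 and 24 for KD-2. Both knockdown libraries lie above control and next to each other. Cdx2 was 3.56-fold higher in KD-1 (interval 1.42 to 10.6) and 3.71-fold higher in KD-2 (interval 1.48 to 11.1). KD-1 and KD-2 did not differ beyond counting error, at a ratio of 0.957 (interval 0.525 to 1.75). Its level stayed low in all libraries, at 0.305 CPM in KD-1 against 29.8 for Tfap2c.

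Gata3, a zinc finger factor that acts in parallel to Cdx2 downstream of TEAD4, had 17 reads in the control library, with 41 for KD-1 and 33 for KD-2. It was 2.06-fold higher in KD-1 (interval 1.14 to 3.86) and 1.80-fold higher in KD-2 (interval 0.976 to 3.45), so that the difference in KD-2 is within counting error. The paper names Gata3 among the genes upregulated on NUP153 depletion, in a test with a dispersion fixed from spike-in RNA. The exons of Gata3 share 77 bases with 9230102O04Rik on the same strand, which had 2 reads in control and 0 in each knockdown. They also share 155 bases with an antisense gene that was not counted. Reads from these bases cannot be assigned to one gene.

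Gata2, which functions with GATA3 in trophoblast giant cells, had 80 reads in the control library, with 92 for KD-1 and 120 for KD-2. KD-2 is the highest, and control and KD-1 are alike within counting error. The fold was 0.982 in KD-1 (interval 0.719 to 1.34) and 1.39 in KD-2 (interval 1.04 to 1.87), neither past 1.5. Within each library the ratio of Gata2 to Gata3 reads was 4.71 in control (interval 2.76 to 8.48), 2.24 in KD-1 (interval 1.54 to 3.33) and 3.64 in KD-2 (interval 2.46 to 5.52), with overlapping intervals. Gata2 was higher in the library in which the fibroblast markers were higher, and their part in its level was not tested.

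Tfap2c, an AP-2 factor that naive ES cells also express, had 2683 reads in the control library, with 2444 for KD-1 and 2145 for KD-2. It was the only one of these transcription factors with intervals below 1 in both knockdown libraries, at 0.777 of control in KD-1 (interval 0.736 to 0.822) and 0.742 in KD-2 (interval 0.701 to 0.786). These differences are smaller than 1.5-fold. Scaled to the summed reads of the ES cell markers, a setting chosen after seeing the data, the log2 fold of Tfap2c was -0.50 for KD-1 and -0.0011 for KD-2, compared to -0.36 and -0.43 with upper-quartile normalization.

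Elf5, an ETS factor whose promoter is silenced in ES cells, had 2 reads in the control library, with 3 for KD-1 and 4 for KD-2. Hand1, a bHLH factor of giant cells, had 1 read each in control and KD-1, and 4 in KD-2. A difference in either gene was not detectable at this depth.

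Krt8, the type II keratin of simple epithelia, had 478 reads in the control library, with 684 for KD-1 and 419 for KD-2. KD-1 lies above control and KD-2 below it. The fold was 1.22 in KD-1 (interval 1.09 to 1.38) and 0.814 in KD-2 (interval 0.712 to 0.930). Krt18, its type I partner, had 343 reads in the control library, with 468 for KD-1 and 288 for KD-2. Its fold was 1.16 in KD-1 (interval 1.01 to 1.34) and 0.780 in KD-2 (interval 0.664 to 0.915). Both keratins therefore lie on opposite sides of control in the knockdown libraries, by less than 1.5-fold on either side.

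The ratio of Krt8 to Krt18 reads, which does not depend on scaling, was 1.39 in control (interval 1.21 to 1.61), 1.46 in KD-1 (interval 1.30 to 1.65) and 1.45 in KD-2 (interval 1.25 to 1.70). The 3 values differ by less than their counting error. Compared directly, KD-1 was above KD-2 by a log2 fold of 0.59 for Krt8 and 0.58 for Krt18. Krt8 lay just past the 1.5-fold limit and Krt18 just short of it. The summed ES cell markers were also highest in KD-1 and lowest in KD-2. Scaled to them, Krt8 differed between KD-1 and KD-2 by a log2 fold of 0.02 and Krt18 by 0.01, and in KD-2 both were above control, at 0.13 and 0.07. The part of the ES cell markers in the keratin values was not tested otherwise. The exons of Krt8 share 101 bases with a long noncoding RNA on the opposite strand that was not counted.

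In KD-1 compared to control, 2 of the 6 genes with enough reads were past the fold, Cdx2 and Gata3, both higher. Among all 16670 genes averaging 10 reads or more, 14.5% were past the fold in KD-1, with 8.81% higher and 5.7% lower. In KD-2, 2 of the 6 were past the fold, again Cdx2 and Gata3, against 27.5% of all genes past the fold, with 17.2% higher and 10.3% lower. Both comparisons use the same control library, in which Cdx2 rests on 6 reads. Cdx2 reached the minimum through the libraries in which it was high, so that its place in these counts and in the median follows from the minimum, and the counts are a description. Of all genes, 3.74% were past the fold and higher in both knockdown libraries. Compared directly, 1 of the 6 genes, Krt8, was past the fold between KD-1 and KD-2, against 30.3% of all genes, with 14.1% higher in KD-1 and 16.2% lower. Krt8 was past the fold with upper-quartile normalization and with none of the other scalings, at log2 folds of 0.53 with TMM, 0.48 with DESeq2 size factors, 0.42 with library totals and 0.02 with ES cell markers. The median log2 fold of the 6 genes was 0.25 for KD-1 and 0.09 for KD-2, compared to 0.02 and -0.02 over all genes. The share of higher genes among all those past the fold depended on the scaling. It was 60.7% for KD-1 against control with upper-quartile normalization, 51.3% with DESeq2 size factors and 41.5% with ES cell markers. For KD-2 against control it was 62.6%, and 82.6% with library totals and 95.3% with ES cell markers. Between KD-1 and KD-2 it was 46.5%, and 33.0% with DESeq2 size factors, 26.0% with library totals and 4.96% with ES cell markers.

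**Figure D2:**
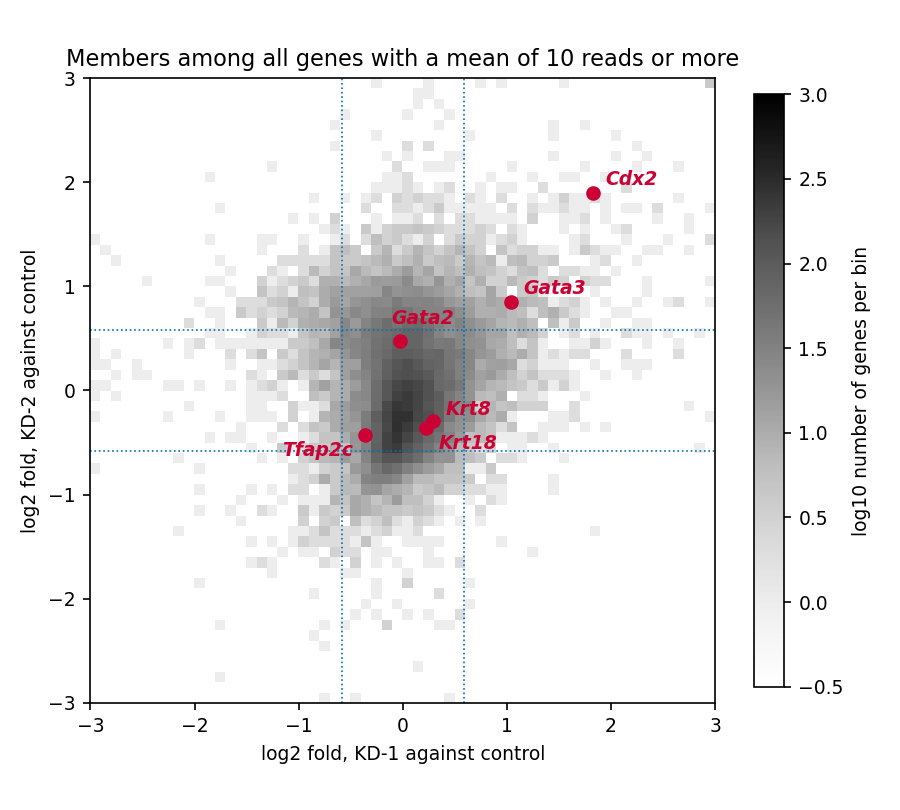
log2 fold in KD-1 (x axis) against log2 fold in KD-2 (y axis), both relative to the same control library, for all 16670 genes averaging 10 reads or more (grey bins, values beyond 3 drawn at 3) and for the 6 genes described here that reached it (red); dotted lines mark 1.5-fold. Cdx2 and Gata3 lie in the upper right, with Cdx2 farther out, and the other 4 genes lie inside of the dotted lines.

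The knockdown libraries were also taken as one group and set against control in a quasi-likelihood fit of edgeR (TMM scaling). It takes the spread from KD-1 and KD-2 with 1 residual degree of freedom and assumes that the control varies alike. The spread of each gene is drawn towards that of all genes, so each p-value rests largely on the spread over all genes. Of 21164 genes tested, 0.0189% had an adjusted p under 0.05, and 0 of the 8 trophoblast lineage genes were among them. The targeted gene Nup153 was not among them either, at a log2 fold of -1.19 (SE 0.40, edgeR unadjusted p = 0.00315, adjusted p = 1.00), so that the absence of a call in this fit says little. Cdx2 had a log2 fold of 1.85 (SE 0.90, edgeR unadjusted p = 0.0384, adjusted p = 1.00), and was higher in 2 of 2 knockdown libraries. It was the only one of the 8 genes with an unadjusted p under 0.05, which 1.38% of all genes had. Gata3 had a log2 fold of 0.96 (SE 0.72) and Tfap2c of -0.38 (SE 0.41), both with an edgeR adjusted p of 1.00. The Wald test of DESeq2 called 0 of the 8 genes, and 0 had an unadjusted p under 0.05.

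The other genes known for the trophectoderm and its stem cells were examined as a list of 20 regulators, all averaging 10 reads or more. In KD-1, 3 were past the fold and higher, Eomes, Tead4 and Tfap2a, and 0 were lower, with a median log2 fold of 0.18. In KD-2, 3 were past the fold and higher, Eomes, Tfap2a and Cited2, and 0 were lower, with a median of 0.18. The shares of all genes past the fold and higher were 8.81% in KD-1, 17.2% in KD-2 and 3.74% in both, so that 3 of 20 in KD-2 is near the share of all genes. Those past the fold and lower made up 5.7% of all genes in KD-1 and 10.3% in KD-2. Eomes, the T-box factor that acts beside CDX2, had 249 reads in the control library, with 463 for KD-1 and 406 for KD-2, and was 1.59-fold higher in KD-1 (interval 1.36 to 1.86) and 1.51-fold higher in KD-2 (interval 1.29 to 1.78). Tfap2a, the AP-2 paralog of Tfap2c, had 30 reads in the control library, with 66 for KD-1 and 60 for KD-2, and was 1.88-fold higher for KD-1 and 1.86-fold higher for KD-2. Eomes and Tfap2a were the 2 genes of the list past the fold in both libraries, and Tfap2a, Tead4 and Cited2 are named after their values were seen. Sox2, which both ES and trophoblast stem cells need, had 27360 reads in control and was at 0.880 of that level in the KD-1 library and 0.808 in the KD-2 library. Bmpr1a, a BMP receptor, was at 0.918 for KD-1 and 0.858 for KD-2.

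Upstream of Cdx2, 18 Hippo pathway genes were measured, and 0 of them were past the fold in both libraries in the same direction. Of all genes, 3.74% were higher in both and 1.01% lower in both. In KD-1, 1 was past the fold and higher, and 0 were lower, against 8.81% and 5.7% of all genes. This gene was Tead4, the partner of YAP1 at the Cdx2 enhancer, which had 267 reads in the control library, with 493 for KD-1 and 248 for KD-2. In KD-2, 3 were past the fold and higher, Amotl2, Lats2 and Vgll4, and 1 was lower, Stk4, where 17.2% of all genes were past the fold and higher and 10.3% lower. Amotl2, Lats2 and Vgll4 were below control in KD-1 and above it in KD-2, as were the fibroblast markers, whose part in these values was not tested. Yap1 itself was at 1.03-fold in KD-1 and 1.04-fold in KD-2. Amotl2, an angiomotin that binds YAP1, was at 0.929 for KD-1 and 1.84-fold for KD-2. All of these genes other than Yap1 and Amotl2 are named after their values were seen.

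Of 24 trophectoderm epithelium genes with enough reads, which build the wall of the blastocyst, 3 were past the fold and higher in KD-1, Aqp3, Aqp8 and Lrp2, and 2 were lower, Cldn6 and Cldn7, with a median log2 fold of 0.03. In KD-2, 2 were higher, Aqp3 and Dab2, and 4 were lower, Cdh1, Cldn6, Cldn7 and Dsg2, with a median of -0.17. Of all genes, 8.81% were higher and 5.7% lower in KD-1, and 17.2% were higher and 10.3% lower in KD-2. The summed ES cell markers were also lower and the summed fibroblast markers higher in KD-2, and their part in these values was not tested. Aqp3, a water channel of the blastocyst epithelium, had 912 reads in the control library, with 2222 for KD-1 and 1575 for KD-2, and was 2.08-fold higher in KD-1 (interval 1.92 to 2.25) and 1.60-fold higher in KD-2 (interval 1.48 to 1.74). The claudin genes Cldn6 and Cldn7 were past the fold and lower in both libraries, with 30 to 112 reads. The claudins, Aqp8, Lrp2, Dab2 and Dsg2 are named after their values were seen. Cdh1, the E-cadherin gene of both ES cells and trophectoderm, was at 0.925 for KD-1 and 0.611 for KD-2.

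Of 24 genes of differentiated trophoblast and placenta, 14 averaged 10 reads or more, of which 4 were past the fold and higher in KD-1 (Prl2c2, Peg10, Rtl1 and Mmp9) and 4 lower (Rhox6, Rhox9, Ovol2 and Slco2a1), with a median log2 fold of -0.21. In KD-2, 2 were higher, Pparg and Slco2a1, and 4 were lower, Prl2c2, Rhox6, Rhox9 and Ovol2, with a median of -0.20. Among all genes the shares were 8.81% higher and 5.7% lower in KD-1, 17.2% higher and 10.3% lower in KD-2, and 1.01% lower in both. Prl2c2 and Slco2a1 thus lay on opposite sides of control in the knockdown libraries, and Prl2c2, with 10, 22 and 6 reads, reached the minimum through KD-1. Slco2a1 and Pparg were below control in KD-1 and above it in KD-2, as were the fibroblast markers, whose part in these values was not tested. Tpbpa, Tpbpb, Prl3b1, Ctsq and Synb, which mark the spongiotrophoblast, the giant cells and the syncytium, had 0 reads in all 3 libraries. A count of 0 allows up to 3 reads, so these 5 markers were not detectable at this depth. Other genes of the list had some reads, among them Syna with 13, 13 and 20 in control, KD-1 and KD-2. In the same order, Plac1 had 25, 28 and 24, Hsd3b6 4, 7 and 2, Prl7a1 1, 2 and 1, and Prl3d1 2, 0 and 0. Rhox6 had 1517 reads in the control library, with 917 for KD-1 and 556 for KD-2, and Rhox9 had 1211, 773 and 445. These homeobox genes of the placenta and the germ line were lower in both libraries, at 0.516 and 0.340 of control for Rhox6 and 0.545 and 0.341 for Rhox9. Ovol2 was lower in both as well, with 67 to 103 reads. The genes of this list other than Rhox6, Rhox9 and Peg10 are named after their values were seen. The imprinted gene Peg10 was 1.58-fold higher for KD-1 and at 0.924 for KD-2.

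The paralogs of these genes were compared as a family check. Of 21 paralogs, 15 had enough reads, and 1 was past the fold and higher in KD-1, Tfap2a, and 1 lower, Gata5. In KD-2, 4 were higher, Tfap2a, Tfap2b, Gata6 and Hand2, and 4 lower, Cdx4, Ehf, Gata1 and Gata5, where 17.2% of all genes were higher and 10.3% lower, against 8.81% and 5.7% in KD-1. Gata5 had 15, 8 and 10 reads and reached the minimum through control, so that its place in both counts of lower genes follows from the minimum. Hand2, the paralog of Hand1, had 41 reads in the control library, with 68 for KD-1 and 115 for KD-2, and Gata6 had 46, 63 and 105. Both were past the fold in KD-2 and not in KD-1. The fibroblast markers were also higher in KD-2, and their part in these values was not tested. Krt7 and Krt19, the other simple keratins of trophoblast, had 86 and 185 reads in control, 68 and 181 in KD-1, and 124 and 240 in KD-2. Neither was past the fold in either library. Both were below control in KD-1 and above it in KD-2, as were the fibroblast markers, whose part in these values was not tested. Elf1 and Elf2, the paralogs with the most reads, were within 1.5-fold of control in both libraries. The genes named here other than Elf1 and Elf2 were chosen after their values were seen.

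By its values over the 3 libraries, Krt8 was most like Krba1, Atp2a2, BC005561, Lrrc2 and Zfp369, which had distances of 0.0018 to 0.011 in the pair of log2 folds among 12743 genes averaging 100 reads or more. Krt18 ranked at place 210, at a distance of 0.09. As 242 genes lay within 0.1, 3 libraries do not single out a gene by its pattern.

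Markers of other lineages that share these factors were also measured. Of 8 germ cell genes, in which TFAP2C functions, 2 were past the fold and higher in KD-1, Ddx4 and Dazl, and 0 were lower. In KD-2, 1 was higher, Ddx4, and 2 were lower, Dppa3 and Prdm1. Ddx4 was 1.88-fold higher for KD-1 and 2.04-fold higher for KD-2, while Dppa3 was at 0.719 and 0.328 and Kit at 1.21 and 0.878. The ES cell markers had a lower sum in KD-2 as well, and their part in the germ cell values was not tested. Of 12 primitive endoderm genes with enough reads, 3 were past the fold and higher in KD-1 (Sox17, Hnf4a and Col4a1) and 5 in KD-2 (Gata6, Pdgfra, Col4a1, Dab2 and Amn), and 0 were lower in either. Lamb1, the most abundant gene of the list, was at a log2 fold of 0.17 for KD-1 and 0.37 for KD-2. Of 11 mesoderm and amnion genes, 2 were past the fold and higher in KD-1, Kdr and Eomes, and 5 in KD-2, which also held T, Hand2 and Msx1. Msx1 had 4, 5 and 27 reads and reached the minimum through KD-2 alone, so that its place in this count follows from the minimum. Bmp4 was at a log2 fold of -0.17 for KD-1 and -0.18 for KD-2. Over all genes, 8.81% were past the fold and higher for KD-1 and 17.2% for KD-2, with 3.74% higher in both libraries. Genes past the fold and lower made up 5.7% for KD-1 and 10.3% for KD-2. The counts of these small lists are read beside these shares. The fibroblast markers were also higher in KD-2, with 16 of 19 past the fold, and their part in the values of the endoderm, mesoderm and amnion genes was not tested. Pdgfra is on the fibroblast list as well. The genes of these 3 lists other than Ddx4, Dppa3, Kit, Col4a1, Lamb1, Pdgfra, Kdr, Eomes and Bmp4 are named after their values were seen. Eomes belongs to this list as well as to the trophectoderm regulators.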

How the data were processed

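RNA-Seq was performed on ribosomal RNA-depleted total RNA, sequenced as 50 bp single-end reads. The authors trimmed the reads with Trim Galore 0.4.1, mapped them with TopHat2 2.1.1 to mm10 (GRCm38), and deposited raw read counts per gene from reads with a mapping quality above 30, with 5 summary lines of HTSeq (21.5 to 24.1% of reads outside of genes and 1.45 to 1.65% ambiguous) that were left out here. In the methods, counting is credited to featureCounts, and the strand setting is not given in the sources used here. The spike-in dispersion of the authors' test could not be had from the counts.

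Groups follow the shRNA in the sample labels. Folds are ratios of reads scaled by upper-quartile normalization in edgeR 4.0.16 (R 4.3.3), without pseudocount, with exact conditional Clopper-Pearson 95% intervals. A count of 0 was set to 3 reads. The quasi-likelihood test of edgeR with Benjamini-Hochberg adjustment and the Wald test of DESeq2 1.42.0 were used for both knockdowns as a group. The SE beside an edgeR log2 fold is that fold, without its sign, divided by the square root of the F statistic. Exon lengths and coordinates are from GENCODE M21 (GRCm38), and promoters from RefSeq (GRCm38.p6). Scripts were tested on simulated data, in Python 3.11.15 with scipy 1.17.1.

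The members, gene lists and motifs were chosen with earlier results of these data known. Genes named beside the members were Nup153, from each list those past the fold in the same direction in both knockdowns with a mean of at least 100 reads (at most 4, by highest mean) and its 2 genes of highest mean (3 for fibroblast markers), and the 5 genes nearest to Krt8. Some genes that this rule names are not reported here. Alternatives were TMM, DESeq2 size factors, library totals, no filter, a fold above 2, a pseudocount of 5 and edgeR's likelihood ratio test at assumed dispersions of 0.04 and 0.16, and, chosen after seeing the data, scaling by ES cell markers.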

Additional observations from a re-analysis of the deposited data

Results flagged for a closer look

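Krt8 and Krt18 were each above control in KD-1 and below control in KD-2, and all 4 counting intervals lie on one side of 1. The log2 fold of KD-1 against KD-2 was 0.59 for Krt8 and 0.58 for Krt18. Scaled to the summed ES cell markers, chosen after seeing the data, both were above control in KD-2 as well, at 0.13 for Krt8 and 0.07 for Krt18, and KD-1 against KD-2 was 0.02 and 0.01. The difference between the knockdowns was not tested against a spread of replicates, since each has 1 library.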

How the results depend on the processing

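In KD-1, Cdx2 and Gata3 were past the fold with every scaling, without a filter, with a fold above 2 and with a pseudocount of 5. In KD-2, the number of genes past the fold went from 2 to 4 without a filter on low counts, where Elf5 and Hand1 enter with 4 reads each, and to 1, Cdx2, with a fold above 2. Library totals and ES cell markers added Gata2 there, at log2 folds of 0.64 and 0.91. Between KD-1 and KD-2, 0 genes were past the fold with TMM, with a fold above 2 and with a pseudocount of 5, and 2 without a filter, Krt8 and Hand1. With DESeq2 size factors and library totals the 1 gene was Gata2, at -0.61 and -0.67, and not Krt8. With ES cell markers the 2 genes were Cdx2, at -0.63, and Gata2, at -1.07. Assuming a biological variation of 20% (dispersion 0.04) in edgeR's likelihood ratio test, 0 of these genes were called in each of the 3 comparisons between libraries, and 70 genes in all were called in KD-1, 61 in KD-2 and 654 between them. At 0.16, 0 of them and 0 of all 21164 genes were called.

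For both knockdowns as a group, edgeR called 0 of the genes tested under each alternative, which were all 8 except with a minimum mean of 10 reads, where Elf5 and Hand1 were not tested. The log2 fold of Krt18 turned from -0.03 to 0.0757 with ES cell markers. Leaving out a knockdown library leaves a value without a test: it was -0.0435 to 0.519 for Gata2, -0.25 to 1.93 for Hand1, -0.26 to 0.27 for Krt8, -0.32 to 0.20 for Krt18 and 1.81 to 1.93 for Cdx2. Scaling by library totals moved the median of all genes in KD-2 by 0.16 on the log2 scale and ES cell markers by 0.43. No paired analysis was possible because each group has 1 library. Depth limits Elf5 and Hand1, and Cdx2 in control.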
